A study of Mus musculus with 8 samples.

Results

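The immediate early genes *Fos*, *Fosb*, *Fosl1*, *Fosl2*, *Jun*, *Junb*, *Jund*, *Egr1*, *Ier2* and *Ier3* were examined in mouse embryonic stem (ES) cells on day 1 of differentiation in culture. These 10 genes are 10 of the 48440 genes in the count files, and all 10 were among the 17049 genes kept by the filter on low counts. They were found by their GENCODE M21 symbols, and the list was chosen from values in these same libraries. Their levels, fold changes and calls are therefore a description, with no test, and p-values are given only for genes outside the list.

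RNA was sequenced from 4 genotypes of *Tbxt*, the gene of the T-box transcription factor Brachyury, to compare cells with different forms of the *Tbxt* transcript. Each genotype has 2 libraries. Wild-type cells are the controls. Tbxt delE6/delE6 cells lack exon 6 on both alleles, Tbxt delE6/+ cells lack it on 1 allele, and Tbxt insASAY/insASAY cells carry the human AluSx1 and AluY elements inserted in the introns on either side of exon 6 on both alleles. The lines were all made from MK6 ES cells, which come from C57BL/6J mice. The 2 delE6/delE6 libraries come from different clones, and for the other genotypes the sources used here do not say whether the replicates are separate clones, so that p-values measure the spread between these libraries. The exon 6 deletion was made in feeder-free culture and the Alu insertion on a layer of mouse embryonic fibroblasts. For the experiment all cells were plated without feeders in medium with LIF, a MEK inhibitor and the GSK3 inhibitor CHIR99021, moved to N2/B27 medium without them, and differentiated by adding CHIR99021 back.

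Immediate early genes are transcribed within minutes of a signal such as a growth factor, serum, stress or a change of medium, without new protein synthesis. Fos and Jun proteins pair through leucine zippers to form AP-1, a transcription factor. Jun proteins can pair with each other, whereas Fos proteins need a Jun partner. MAP kinases act on the ternary complex factors bound beside SRF and on Jun itself, and in ES cells the FGF and ERK branch of this pathway is known for driving the exit from naive pluripotency.

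RefSeq promoter windows of GRCm38.p6, from 250 bases before to 50 bases after a start site, were searched for 7 of the 10 genes. *Egr1*, *Fosl1* and *Ier2* are not among them, so the counts below say nothing of their promoters. The windows of *Fos*, *Fosb* and *Junb* are shown because they hold the letters TGACG, the core of the site bound by CREB and ATF proteins, and the window of *Ier3* because its level differed most between genotypes. Capitals mark TGACG on the printed strand.

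Fos, chr12:85473640-85473939, plus strand: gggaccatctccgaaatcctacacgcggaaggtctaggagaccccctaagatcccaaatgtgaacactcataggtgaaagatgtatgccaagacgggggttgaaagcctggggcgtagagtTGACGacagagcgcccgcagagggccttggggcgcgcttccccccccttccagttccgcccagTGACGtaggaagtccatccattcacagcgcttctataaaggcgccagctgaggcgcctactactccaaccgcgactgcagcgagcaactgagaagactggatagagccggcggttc

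Fosb, chr7:19309996-19310295, minus strand: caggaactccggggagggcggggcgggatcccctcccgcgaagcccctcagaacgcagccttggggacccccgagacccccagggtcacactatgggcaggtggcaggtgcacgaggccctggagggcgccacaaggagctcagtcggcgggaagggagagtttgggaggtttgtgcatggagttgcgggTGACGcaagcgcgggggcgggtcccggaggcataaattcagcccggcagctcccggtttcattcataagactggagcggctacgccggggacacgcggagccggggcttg

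Junb, chr8:84978699-84978998, minus strand: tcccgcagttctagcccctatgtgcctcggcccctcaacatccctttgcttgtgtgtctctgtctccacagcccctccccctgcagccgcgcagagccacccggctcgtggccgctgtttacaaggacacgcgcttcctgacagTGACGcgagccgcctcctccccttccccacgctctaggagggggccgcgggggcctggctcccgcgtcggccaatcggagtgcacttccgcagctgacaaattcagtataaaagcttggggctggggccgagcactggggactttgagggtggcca

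Ier3, chr17:35821463-35821762, plus strand: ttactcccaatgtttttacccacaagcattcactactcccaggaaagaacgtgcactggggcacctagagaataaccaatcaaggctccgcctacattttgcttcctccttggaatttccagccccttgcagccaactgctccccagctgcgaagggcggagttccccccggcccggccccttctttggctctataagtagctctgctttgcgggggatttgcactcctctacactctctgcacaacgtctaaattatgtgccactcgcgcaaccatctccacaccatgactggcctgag

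In GENCODE M21 the *Fos* window has 250 bases outside the gene and 50 in its exons, that of *Fosb* 244 and 56, that of *Junb* 280 and 20, and that of *Ier3* 221 and 79. The window of *Fosl2* lies wholly in an annotated exon of that gene, and that of *Jund* lies wholly upstream of the gene as annotated there. Neither is printed, and the counts over 7 windows include both. TGACG was found in 3 of the 7 windows and in 20.8% of the 32841 mouse promoter windows searched, on either strand. It lies at -129 to -125 and at -66 to -62 from the start site in *Fos*, at -60 to -56 in *Fosb*, and at -106 to -102 in *Junb*. The full site TGACGTCA, which contains TGACG, was in none of the 7 windows and in 1.79% of all windows. The AP-1 site TGANTCA was in none of the 7 and in 7.81% of all, and the CArG box, which SRF binds, in none of the 7 and in 1.63% of all. These letters are not in these windows, which says nothing of sites farther away.

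Each library had between 24618587 and 28445952 reads on genes, and levels are given in CPM, a gene's reads as a share of its library's total on a scale common to all libraries, with TMM factors of 0.975 to 1.03. *Tbxt* itself had 22 to 54 reads per library, and counts per gene cannot show whether exon 6 was skipped. Markers of ES cells were present, with 7 of 7 detected and a summed level of 773 to 1010 CPM. Single markers differed from wild-type in every line. In delE6/delE6, *Nanog* (-1.04 on the log2 scale), *Esrrb* (-1.04) and *Pou5f1* (-0.64) were lower. In delE6/+, *Lin28a* (0.81) and *Sox2* (0.72) were higher and *Nanog* (-0.80), *Pou5f1* (-0.68) and *Utf1* (-0.52) lower. In insASAY/insASAY, *Nanog* (-0.73) and *Esrrb* (-0.56) were lower. Embryonic fibroblast markers summed to 27.4 to 30.8 CPM in wild-type, 30.3 to 30.9 in delE6/+, 15.3 to 15.9 in insASAY/insASAY and 18.3 to 20.9 in delE6/delE6 libraries. All 9 had a read and none was at 0 in every library. The sum in delE6/+ hides changes in both directions. There *Col1a2* (0.66 on the log2 scale) and *Thy1* (0.54) were higher and *Col3a1* (-1.55, from 0.642 to 0.219 CPM on average) lower. Primitive streak markers summed to 15.9 to 17.2 CPM in wild-type, 9.31 to 11.8 in delE6/+, at least 16.6 in insASAY/insASAY and 22.4 to 22.7 in delE6/delE6 libraries. That sum is mostly *Eomes* (14.0 CPM in wild-type, 7.25 in delE6/+ and 20.4 in delE6/delE6 on average), and *Tbxt* (-0.81 on the log2 scale in delE6/delE6) and *Foxa2* (1.47 in delE6/+) went the other way. In bulk RNA, fewer cells that express a gene and less of its RNA per cell cannot be told apart.

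The subunits of AP-1 were present at very different levels. Per kilobase of exon and averaged over the 8 libraries, *Jund* stood at 296 CPM per kb, followed by *Ier2* at 56.1, *Jun* at 43.9, *Junb* at 10.5, *Egr1* at 7.57, *Fosl2* at 7.39, *Ier3* at 7.12, *Fos* at 2.87, *Fosl1* at 0.48 and *Fosb* at 0.262. The order is that of the mean over all libraries and is not the same in each genotype. In delE6/+, *Jun* (53.1) was above *Ier2* (49.9), *Fos* above *Ier3* and *Fosb* (0.198) above *Fosl1* (0.166). In insASAY/insASAY, *Junb* (6.48) was below *Egr1* (8.2) and *Ier3* (6.75). *Egr1*, *Fosl2* and *Ier3* change places between genotypes. *Jund* was more abundant in CPM than 98.4% of the tested genes and *Fosl1* than 15.9%.

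**Figure D1:**
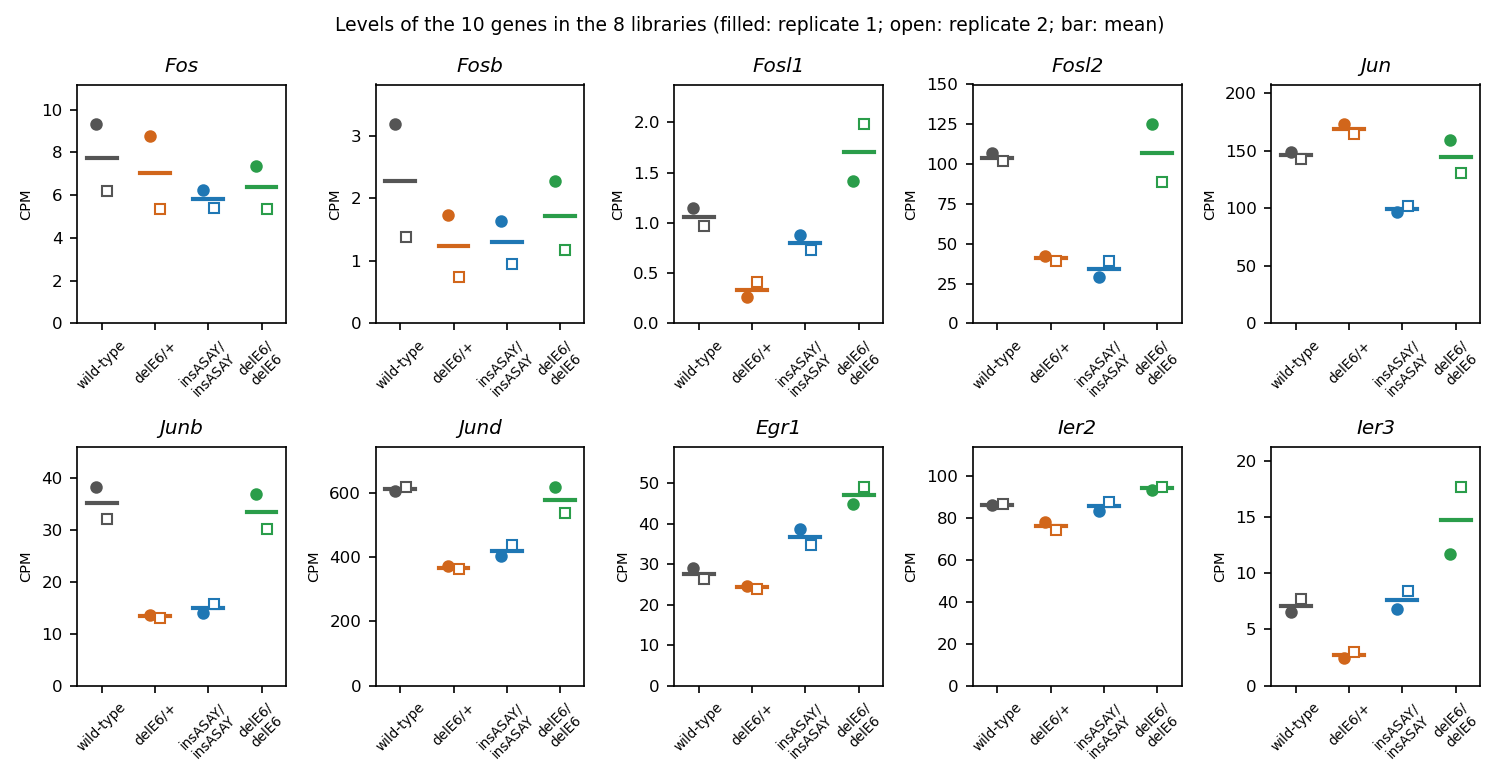
Level of each of the 10 genes in CPM (vertical axes from 0) in the 8 libraries, by genotype. Filled circles are replicate 1, open squares replicate 2 and bars the mean. *Fosl2* is at 89.0 to 125 CPM in the wild-type and delE6/delE6 libraries and at 28.9 to 42.6 CPM in the delE6/+ and insASAY/insASAY libraries, while *Fos* overlaps between all genotypes.

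*Fos* (chr12:85473890-85477273 in GRCm38), the founding member of the Fos family and the classical marker of a recent stimulus, did not separate the genotypes. It stood at 9.31 and 6.18 CPM in wild-type, 7.37 and 5.35 in delE6/delE6, 6.23 and 5.38 in insASAY/insASAY and 8.75 and 5.35 in delE6/+ libraries. The groups overlap in every comparison, and the gap that comes nearest to a separation is that of insASAY/insASAY and wild-type, where 6.23 and 6.18 CPM meet. Log2 fold changes against wild-type were -0.29 (standard error 0.236) in delE6/delE6, -0.13 (0.233) in delE6/+ and -0.42 (0.237) in insASAY/insASAY. Replicates of 1 genotype differed by 1.16-fold to 1.63-fold, and the mutant lines differed from wild-type by at most 1.34-fold. Within each replicate number wild-type was the highest (9.31 and 6.18 CPM), which the overlap of groups does not show.

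*Fosb* (chr7:19302696-19310051), another Fos family gene, was weaker, with 18 to 88 reads per library. It stood at 3.18 and 1.38 CPM in wild-type, 2.27 and 1.17 in delE6/delE6, 1.64 and 0.951 in insASAY/insASAY and 1.74 and 0.736 in delE6/+ libraries. Every pair of genotypes overlaps, though within each replicate number wild-type was the highest (3.18 and 1.38 CPM). A fit with a replicate block, where *Fosb* was called, is given with the dependence on processing below. The log2 fold changes of -0.86 (standard error 0.453) in delE6/+ and -0.82 (0.444) in insASAY/insASAY have the widest errors among the 10 genes, and replicates differed by 1.72-fold to 2.37-fold. Without wild-type replicate 2 the value in insASAY/insASAY was -1.29 and met the rule for a call. Both fold changes also met it with no filter on low counts and in fits of only the genotypes compared.

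*Fosl2* (Fra-2, chr5:32135801-32157842) was the most abundant Fos family RNA in every library, and its level split the genotypes into a high and a low pair. It stood at 107 and 102 CPM in wild-type and at 125 and 89.0 in delE6/delE6 libraries. The levels were 42.6 and 39.2 CPM in delE6/+ and 28.9 and 39.0 in insASAY/insASAY libraries. All 4 libraries of the latter genotypes lie below all 4 of the former. With 2 libraries per genotype, separation of 1 genotype from another is common. Of all tested genes, 34.9% lay wholly below and 34.4% wholly above wild-type in delE6/+, and 38.5% and 38.4% in insASAY/insASAY. In delE6/delE6 the shares were 34.3% and 33.3%, and between mutant lines each was 28.1% to 40.1%. No share was computed for a split of 4 libraries from 4, of 1 genotype from all others, or of all genotypes from each other. The separations of libraries named here and below are therefore only a description. Against wild-type, *Fosl2* had a log2 fold change of -1.35 (SE 0.141) in delE6/+, -1.62 (0.143) in insASAY/insASAY and 0.03 (0.133) in delE6/delE6. Within the high pair delE6/delE6 brackets wild-type. Within the low pair both insASAY/insASAY libraries lie below both delE6/+ libraries, by 39.0 against 39.2 CPM at the nearest, with a log2 difference of -0.27 (0.15) that is not called. Without insASAY/insASAY replicate 2 it was -0.50 and met the rule for a call.

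*Fosl1* (Fra-1, chr19:5447547-5455946), a family member known as an ERK-dependent gene, was low throughout, with 7 to 54 reads per library. The levels were 1.15 and 0.968 CPM in wild-type, 1.42 and 1.98 in delE6/delE6, 0.875 and 0.732 in insASAY/insASAY and 0.265 and 0.409 in delE6/+ libraries. No pair of genotypes overlaps, and the order from high to low was delE6/delE6, wild-type, insASAY/insASAY, delE6/+. Relative to wild-type the log2 value was 0.68 (standard error 0.268) in delE6/delE6, -0.40 (0.304) in insASAY/insASAY and -1.65 (0.371) in delE6/+. Without replicate 1 of delE6/+ the last value was -1.37 and no longer met the rule for a call, and without replicate 1 of delE6/delE6 the first was 0.90 and met it. *Fosl1* overlaps *Ccdc85b* on the opposite strand, so these values rest on the strand of the reads.

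*Junb* (chr8:84974484-84978718) followed *Fosl2*. Its protein pairs with Fos proteins but is a weaker activator than Jun. It stood at 38.3 and 32.1 CPM in wild-type and 36.9 and 30.1 in delE6/delE6 libraries, against 13.7 and 13.0 in delE6/+ and 14.0 and 15.8 in insASAY/insASAY libraries. The 4 low libraries reach at most 15.8 CPM and the 4 high ones lie at 30.1 CPM or more. Its log2 fold change was -1.40 (standard error 0.117) in delE6/+, -1.24 (0.115) in insASAY/insASAY and -0.07 (0.107) in delE6/delE6.

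*Jund* (chr8:70698949-70700616), the most abundant subunit and the one least dependent on stimulation, showed the same split at a smaller size. The levels were 604 and 619 CPM in wild-type, 617 and 538 in delE6/delE6, 402 and 436 in insASAY/insASAY and 371 and 362 in delE6/+ libraries. *Jund* had a log2 fold change of -0.74 (SE 0.0611) in delE6/+, -0.55 (0.0608) in insASAY/insASAY and -0.08 (0.0605) in delE6/delE6. Without insASAY/insASAY replicate 1 its value there was -0.49, just short of the size a call needs. The antisense gene *Gm11175* overlaps *Jund*, and counting without regard to strand leaves only 25.1% of its reads.

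*Jun* (chr4:95049034-95052222), the strongest activator of its family and a target of the JNK kinases, was lower in a single genotype. It stood at 149 and 143 CPM in wild-type, 159 and 131 in delE6/delE6, 173 and 165 in delE6/+ and 96.9 and 102 in insASAY/insASAY libraries. The insASAY/insASAY libraries lie below the 6 others and the delE6/+ libraries above the 6 others. Log2 fold changes were -0.55 (standard error 0.0739) in insASAY/insASAY, 0.21 (0.0726) in delE6/+ and -0.01 (0.0729) in delE6/delE6. Between the delE6/+ and insASAY/insASAY lines, which resemble each other in *Fosl2*, *Junb* and *Jund*, *Jun* differed by a log2 fold change of -0.77 (0.0739).

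*Egr1*, a zinc finger factor induced through SRF and the ternary complex factors, had another order. It stood at 44.8 and 49.2 CPM in delE6/delE6, 38.7 and 34.8 in insASAY/insASAY, 29.0 and 26.3 in wild-type and 24.6 and 24.0 in delE6/+ libraries. No pair of genotypes overlaps. *Egr1* differed from wild-type by a log2 fold change of 0.77 (SE 0.0797) in delE6/delE6, 0.41 (0.0805) in insASAY/insASAY and -0.19 (0.0837) in delE6/+.

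*Ier3* (chr17:35821684-35822923), a target of ERK and NF-kB signalling that modulates cell death, had the widest range, 2.37 between genotype means on the log2 scale. It stood at 11.7 and 17.7 CPM in delE6/delE6, 6.57 and 7.67 in wild-type, 6.85 and 8.42 in insASAY/insASAY and 2.46 and 3.02 in delE6/+ libraries. The wild-type and insASAY/insASAY libraries overlap, with the delE6/delE6 clones above and the delE6/+ libraries below. *Ier3* differed from wild-type by 1.05 on the log2 scale (standard error 0.183) in delE6/delE6, -1.38 (0.228) in delE6/+ and 0.10 (0.194) in insASAY/insASAY. The delE6/delE6 clones themselves differ by 1.52-fold.

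*Ier2* (chr8:84661331-84662852), a nuclear protein of the same early response, varied least. Its levels ran from 74.1 CPM in a delE6/+ library to 94.9 CPM in a delE6/delE6 library, and the log2 fold changes against wild-type were 0.13 (standard error 0.0504), -0.18 (0.0509) and -0.01 (0.0504) in delE6/delE6, delE6/+ and insASAY/insASAY. *Ier2* thus spread over 0.31 on the log2 scale of genotype means and *Fos* over 0.39.

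**Figure D2:**
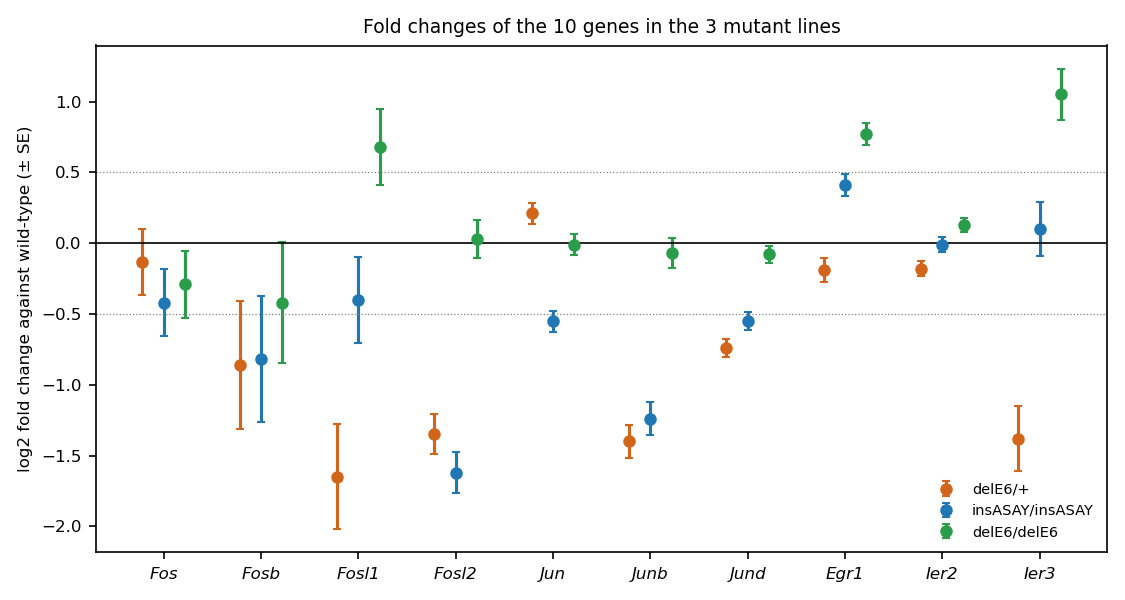
Log2 fold change of the 10 genes against wild-type (vertical axis) in delE6/+, insASAY/insASAY and delE6/delE6 cells, with the standard error of the edgeR fit as bars and dotted lines at 0.5 in size. *Fosl2*, *Junb* and *Jund* lie below 0 in delE6/+ and insASAY/insASAY and near 0 in delE6/delE6, and *Ier3* lies at 1.05 in delE6/delE6 and -1.38 in delE6/+.

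The rule for a call was a Benjamini-Hochberg adjusted p below 0.05 together with a log2 fold change of more than 0.5 either way, from 1 edgeR quasi-likelihood fit of the 8 libraries and adjusted over all tested genes. In delE6/delE6 against wild-type, where 12.7% of all tested genes were called (6.12% higher, 6.59% lower), 2 of the 10 genes were called, *Egr1* and *Ier3*, both higher. In delE6/+ against wild-type, where 13.5% were called (6.60% higher, 6.89% lower), *Fosl1*, *Fosl2*, *Junb*, *Jund* and *Ier3* were called lower. In insASAY/insASAY against wild-type, where 21.3% were called (11.5% higher, 9.85% lower), *Fosl2*, *Jun*, *Junb* and *Jund* were called lower. The median log2 fold change of the 10 genes was 0.01, -0.80 and -0.48 in these comparisons, beside -0.01, -0.001 and -0.005 over all tested genes. The 10 genes were chosen from these values, so nothing is read from these counts, and the 3 comparisons share the wild-type libraries.

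The mutant lines were also set against each other. For *Fosb*, *Fosl1*, *Fosl2*, *Junb*, *Jund*, *Egr1*, *Ier2* and *Ier3* the mean of the heterozygous cells lay below those of both wild-type and homozygous cells. For *Fos* it lay between them (7.05 against 7.74 and 6.36 CPM), and for *Jun* above both (169 against 146 and 145 CPM). Called lower in delE6/+ than in delE6/delE6 were *Fosl1* (log2 fold change -2.34, standard error 0.343), *Fosl2* (-1.38, 0.142), *Junb* (-1.32, 0.118), *Jund* (-0.66, 0.0611), *Egr1* (-0.95, 0.0811) and *Ier3* (-2.43, 0.213). These 6 calls stand beside 22.2% of all tested genes (11.2% higher, 11.0% lower). The insASAY/insASAY cells were lower than delE6/delE6 cells for *Fosl1* (-1.08, 0.282), *Fosl2* (-1.65, 0.143), *Jun* (-0.54, 0.0741), *Junb* (-1.17, 0.115) and *Ier3* (-0.95, 0.181). These 5 calls stand beside 5.16% of all tested genes (2.79% higher, 2.38% lower). They are 3 without insASAY/insASAY replicate 1, where *Fosl1* (-1.22) and *Ier3* (-0.81) miss the rule. *Fosl1* also misses it without insASAY/insASAY replicate 2 (-0.96) or delE6/delE6 replicate 2 (-0.82), and *Jun* without delE6/delE6 replicate 1 (-0.41). *Jund*, at -0.46 (0.0608), meets it without delE6/delE6 replicate 2 (-0.56) or insASAY/insASAY replicate 2 (-0.53). In insASAY/insASAY against delE6/+, *Fosl1* (1.25, 0.392), *Egr1* (0.60, 0.082) and *Ier3* (1.48, 0.226) were called higher and *Jun* lower, beside 27.5% of all tested genes (14.6% higher, 13.0% lower). *Fosl1* misses the rule there without delE6/+ replicate 1 (0.97) or without insASAY/insASAY replicate 1 (1.12).

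Summed per kilobase of exon, the AP-1 subunits separated the same pairs of genotypes. The Fos family summed to 16.1 and 13.8 CPM per kb in wild-type, 17.1 and 12.6 in delE6/delE6, 8.53 and 6.64 in delE6/+ and 6.33 and 6.83 in insASAY/insASAY libraries. For the Jun family the sums were 426 and 430, 436 and 377, 283 and 274, and 278 and 300 CPM per kb in the same order. Jun family RNA thus outweighed Fos family RNA in every library, and the Fos family held 2.22% to 3.77% of the total. The Jun family sum is mostly *Jund*, at 76.4% to 85.1% of the whole. The makeup differed between genotypes as well. *Jun* held 18.7% and 18.4% of the AP-1 subunit RNA in delE6/+ libraries and 10.1% to 11.0% in the 6 others. *Junb* held 3.14% to 3.77% in wild-type and delE6/delE6 libraries and 2.02% to 2.24% in the others. *Fosl2* accounted for 68.7% to 76.0% of Fos family RNA in the former and 47.2% to 60.9% in the latter.

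**Figure D3:**
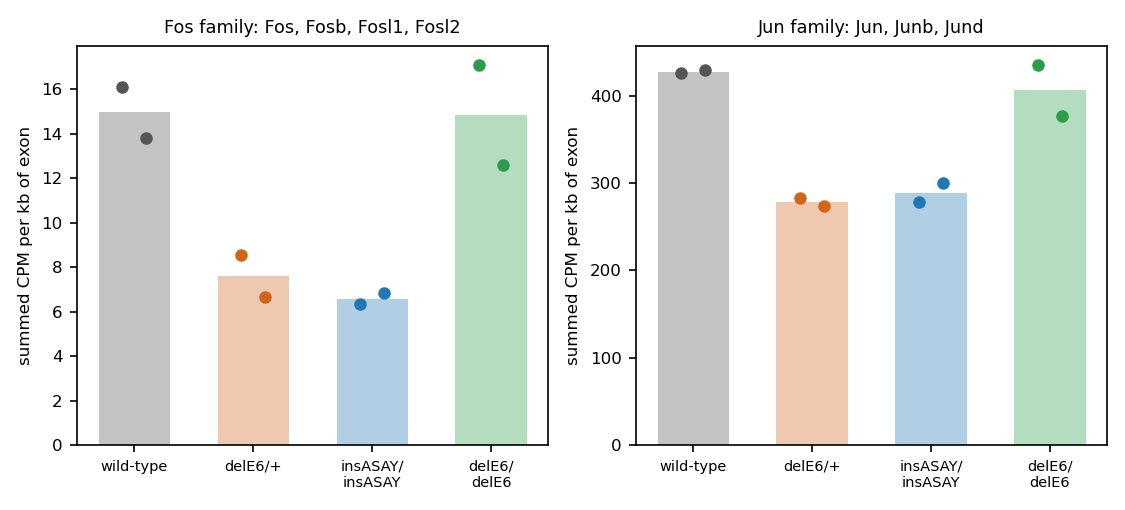
Summed level of the Fos family (left) and the Jun family (right) in CPM per kilobase of exon, on axes that start at 0. Points are the 2 libraries of each genotype and bars their mean. The delE6/+ and insASAY/insASAY libraries lie at 6.33 to 8.53 for the Fos family, below the 12.6 to 17.1 of the wild-type and delE6/delE6 libraries.

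A list of 40 other immediate early genes shows how the rest of this response stood, and 36 of them were tested. This list and those below were drawn up with earlier results of these data known. Their counts are therefore a description and no independent support. *Egr3*, *Egr4*, *Nr4a3* and *Npas4* were too low. In delE6/+ cells 17 of the 36 fell and 0 rose by edgeR, against 6.89% and 6.60% of all tested genes. DESeq2 also called 0 higher there, and 5 were higher at an unadjusted edgeR p under 0.05. Without wild-type replicate 1 the edgeR counts were 14 lower and 2 higher. In insASAY/insASAY cells 18 fell and 1 rose, against 9.85% and 11.5%. In delE6/delE6 cells 6 fell and 3 rose, against 6.59% and 6.12%. The median log2 fold change of the list was -0.50, -0.50 and 0.02. Leaving out libraries or changing the fit kept the number called at 15 to 18, 15 to 20 and 6 to 10.

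*Ccn1* (Cyr61), a matricellular protein gene induced by SRF and YAP, changed most in both lines. It stood at 942 and 1000 CPM in wild-type, 889 and 532 in delE6/delE6, 315 and 328 in delE6/+ and 179 and 235 in insASAY/insASAY libraries. Its log2 fold change was -1.60 (standard error 0.174, edgeR adjusted p = 1.83e-05) in delE6/+ and -2.23 (0.178, edgeR adjusted p = 2.69e-06) in insASAY/insASAY. *Gadd45b*, a stress-induced regulator of MAP kinase signalling, fell from 167 and 167 CPM to 33.9 and 46.3 in insASAY/insASAY libraries (log2 fold change -2.06, standard error 0.147, edgeR adjusted p = 1.69e-06).

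*Ccn2* (Ctgf), a relative of *Ccn1*, fell by 1.45 on the log2 scale in insASAY/insASAY cells (standard error 0.223, edgeR adjusted p = 0.000196). In delE6/delE6 cells its log2 fold change of -0.69 (edgeR adjusted p = 0.0241) is weak: the libraries were at 134 and 62.9 CPM, and without replicate 2 the value was -0.24 and not called. The call was also lost without wild-type replicate 1 (-0.65) or 2 (-0.73), under DESeq2 (-0.68) and in a fit of these genotypes alone. *Zfp36*, which codes for an RNA-binding protein that shortens the life of early-response mRNAs, fell from 31.2 ± 2.02 to 12.3 ± 0.893 CPM (SD, n = 2) in delE6/+ cells (log2 fold change -1.34, standard error 0.119, edgeR adjusted p = 3.37e-06). *Myc*, the growth-promoting transcription factor, went opposite ways: 8.11 ± 1.00 CPM in wild-type, 3.24 ± 0.242 in delE6/+ (log2 fold change -1.32, edgeR adjusted p = 4.87e-05) and 14.9 ± 1.98 in delE6/delE6 (0.88, edgeR adjusted p = 0.000426). *Gadd45g* fell by 1.07 on the log2 scale in delE6/delE6 cells (standard error 0.0825, edgeR adjusted p = 7.54e-06) and by 0.66 in insASAY/insASAY cells (edgeR adjusted p = 3.17e-05).

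The 11 genes that fell in both delE6/+ and insASAY/insASAY cells were *Amotl2*, *Arc*, *Atf3*, *Btg2*, *Ccn1*, *Ccn2*, *Dusp1*, *Gadd45b*, *Klf6*, *Plk3* and *Zfp36*. Both comparisons use the same wild-type libraries, and the share of all tested genes that fell in both was not computed. Nothing is read from that number. *Arc* (log2 fold change -0.50, at the edge of the rule), *Ccn2* and *Gadd45b* also fell in delE6/delE6 cells. *Nr4a2*, an orphan nuclear receptor gene named here after its values were seen, rose in delE6/delE6 (log2 fold change 1.36, edgeR adjusted p = 0.008) and insASAY/insASAY cells (1.09, edgeR adjusted p = 0.0219), at 0.303 to 1.17 CPM. These calls are weak: that in insASAY/insASAY was lost under DESeq2 (Benjamini-Hochberg adjusted p = 0.17) and without any 1 of the wild-type or insASAY/insASAY libraries (edgeR adjusted p = 0.0742 to 0.103), and that in delE6/delE6 without either wild-type library or delE6/delE6 replicate 2 (edgeR adjusted p = 0.0507 to 0.1). In no comparison with wild-type did 10 of the 36 pass, among them *Egr2*, *Dusp2*, *Klf2*, *Ier5* and *Sgk1*. The share of all tested genes that passed in none was not computed.

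**Figure D4:**
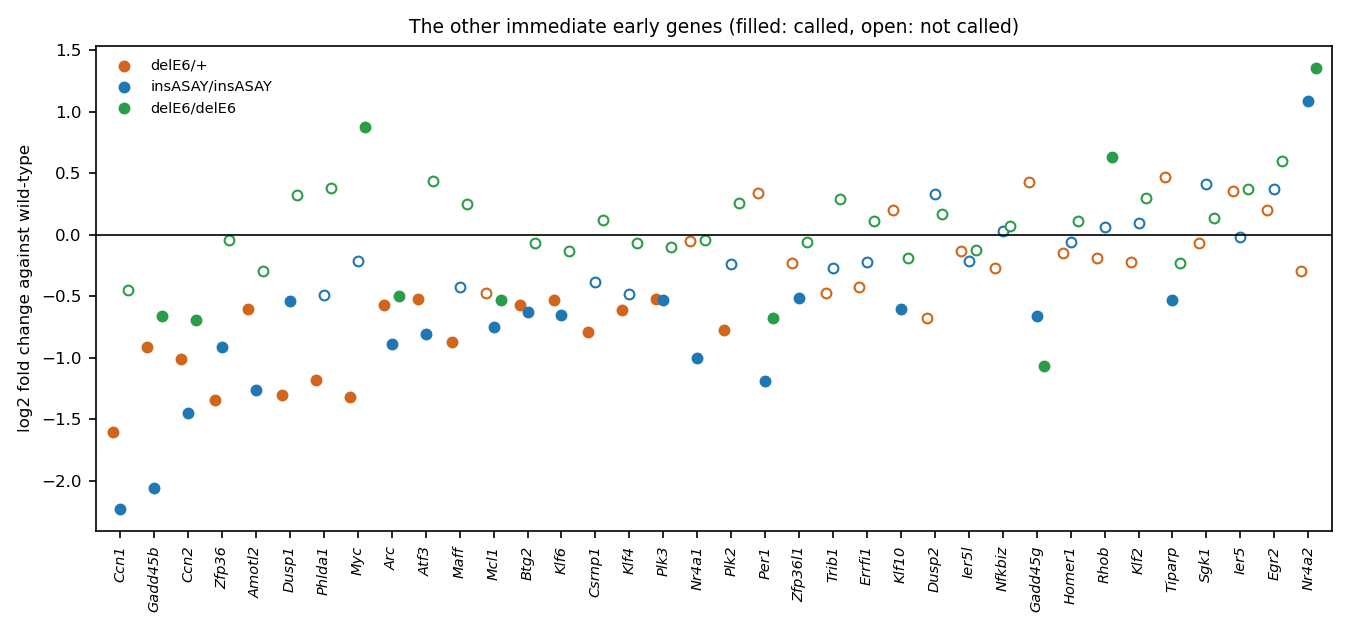
Log2 fold change against wild-type (vertical axis) of the 36 tested genes of the other immediate early gene list, ordered by the mean of delE6/+ and insASAY/insASAY. Filled points were called and open points were not. In delE6/+ 17 filled points lie below 0 and 0 above, and in insASAY/insASAY 18 lie below and 1, *Nr4a2*, above.

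The same list was compared between the mutant lines. In insASAY/insASAY against delE6/delE6 cells, where 2.38% of all tested genes were called lower and 2.79% higher, 17 of the 36 genes were lower and 0 higher by edgeR, with a median of -0.48. By DESeq2 0 were higher as well, and 2 were higher at an unadjusted edgeR p under 0.05. The number was 12 to 19 under the alternatives. Against delE6/delE6, delE6/+ cells were lower for 16 and higher for 3, beside 11.0% and 11.2% of all tested genes, the latter being *Gadd45g*, *Per1* and *Tiparp*. In insASAY/insASAY against delE6/+ cells 6 were higher and 8 lower, beside 14.6% and 13.0%, with a median of 0.04.

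The factors that switch these genes on were counted apart. Of 9 genes for SRF, its cofactors, the ternary complex factors and CREB, 1 was called in delE6/delE6, 2 in delE6/+ and 2 in insASAY/insASAY cells, with medians of 0.34, -0.08 and 0.17 on the log2 scale. These are 11.1%, 22.2% and 22.2% of the list, beside 12.7%, 13.5% and 21.3% of all tested genes. *Srf* itself fell in insASAY/insASAY cells from 171 ± 3.61 to 75.3 ± 2.83 CPM (SD, n = 2), or by a log2 fold change of -1.18 (SE 0.0977, edgeR adjusted p = 3.25e-06). *Mrtfb*, an actin-regulated SRF cofactor, rose in delE6/delE6 (0.62, edgeR adjusted p = 0.000431) and insASAY/insASAY cells (0.56, edgeR adjusted p = 0.000347). In delE6/+ cells *Elk3*, a ternary complex factor, rose by 0.67 (edgeR adjusted p = 0.0111), a call lost without wild-type replicate 1 (0.51) or either delE6/+ library (0.66 and 0.67), and *Crem*, a CREB relative, fell by 0.60 (edgeR adjusted p = 0.000919).

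Of 16 MAP kinase pathway genes, 0 were called in delE6/delE6 or delE6/+ cells by edgeR or DESeq2. At an unadjusted edgeR p under 0.05, 7 were higher and 3 lower in delE6/delE6, and 6 higher and 4 lower in delE6/+, all short of the size or the adjusted p that a call needs. *Braf*, the gene of a kinase above MEK, was the 1 called in insASAY/insASAY cells, with 111 ± 5.42 CPM in wild-type and 68.1 ± 2.61 in the mutant (SD, n = 2; log2 fold change -0.70, edgeR adjusted p = 2.2e-05). Of 10 tested genes for other partners in AP-1 dimers, 0 were called in delE6/delE6, 3 (1 higher, 2 lower) in delE6/+ and 1 (lower) in insASAY/insASAY cells by edgeR, or 0.0%, 30.0% and 10.0% beside 12.7%, 13.5% and 21.3% of all tested genes. In delE6/delE6 DESeq2 also called 0, and 2 were higher and 2 lower at an unadjusted edgeR p under 0.05. *Mafk*, a small Maf protein without an activation domain, fell, with log2 fold changes of -0.65 in delE6/+ (edgeR adjusted p = 1.82e-05) and -0.78 in insASAY/insASAY cells (edgeR adjusted p = 5.27e-06). *Maf*, a large Maf factor named here after its values were seen, rose from 1.23 ± 0.000686 to 4.62 ± 0.584 CPM (SD, n = 2) in delE6/+ cells (log2 fold change 1.91, edgeR adjusted p = 1.12e-05).

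Genes known as AP-1 targets in other cells were counted as well, and 12 of 16 were tested. In delE6/+ cells 6 fell and 0 rose by edgeR (0 by DESeq2, 2 higher at an unadjusted edgeR p under 0.05), in insASAY/insASAY cells 4 fell and 2 rose, and in delE6/delE6 cells 2 fell and 1 rose, with medians of -0.55, -0.36 and 0.01. Of all tested genes 6.89% were lower and 6.60% higher in delE6/+, 9.85% and 11.5% in insASAY/insASAY, and 6.59% and 6.12% in delE6/delE6. *Plaur*, the urokinase receptor gene, was the largest fall, from 67.8 ± 3.23 to 13.7 ± 1.10 CPM (SD, n = 2) in delE6/+ cells (log2 fold change -2.31, standard error 0.103, edgeR adjusted p = 1.74e-08). *Mmp9*, a matrix metalloproteinase gene, fell in all 3 lines, with log2 fold changes of -1.03, -1.36 and -1.31 in delE6/delE6, delE6/+ and insASAY/insASAY (edgeR adjusted p = 0.000553, 5.39e-05 and 4.9e-05). *Tgfb1*, a growth factor gene, fell by 1.27 in delE6/+ cells (edgeR adjusted p = 2.28e-05). *Hbegf*, an EGF receptor ligand, and *Lif* had log2 fold changes of -1.14 and -0.98 in insASAY/insASAY cells (edgeR adjusted p = 6.24e-05 and 4.59e-06). In delE6/+ cells these 2 genes were called at -0.91 and -0.68 (edgeR adjusted p = 0.000461 and 6.01e-05). *Hmox1*, the haem oxygenase gene, rose by 0.93 in delE6/delE6 cells (edgeR adjusted p = 7.15e-06) and by 0.63 in insASAY/insASAY cells (edgeR adjusted p = 1.95e-05). *Spp1*, the osteopontin gene, fell by 1.11 in delE6/+ cells (edgeR adjusted p = 1.9e-05). In delE6/delE6 cells *Spp1* fell by 0.63 (edgeR adjusted p = 0.00166), but by 0.39, short of the size for a call, when delE6/delE6 replicate 2 was left out.

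Heat shock genes, a readout of general stress, were called for 3, 4 and 3 of 11 (27.3%, 36.4% and 27.3%) in delE6/delE6, delE6/+ and insASAY/insASAY cells, beside 12.7%, 13.5% and 21.3% of all tested genes. Their summed level was 10800 to 11000 CPM in delE6/+ libraries and 12600 to 13100 CPM in the 6 others. That sum is mostly *Hsp90ab1*, *Hsp90aa1* and *Hspa8*, at 5620, 2530 and 2440 CPM on average over all libraries. It says little of *Hspa1a* and *Hspa1b*, at 3.16 and 2.86 CPM. By direction, 1 rose and 2 fell in delE6/delE6, 0 rose and 4 fell in delE6/+ (DESeq2 also called 0 higher, and 1 was higher at an unadjusted edgeR p under 0.05), and 1 rose and 2 fell in insASAY/insASAY. *Hspb1* fell in delE6/+ cells from 231 ± 16.3 to 82.3 ± 4.59 CPM (SD, n = 2), or by a log2 fold change of -1.49 (SE 0.0628, edgeR adjusted p = 1.27e-08). The inducible gene *Hspa1a* was at 4.30 ± 0.658 CPM in wild-type and 1.83 ± 0.212 CPM in insASAY/insASAY cells (SD, n = 2). *Hsph1*, which codes for a large heat shock protein, rose from 37.0 ± 1.66 to 67.4 ± 5.07 CPM in insASAY/insASAY cells (SD, n = 2; log2 fold change 0.86, edgeR adjusted p = 4.03e-05). Its rise in delE6/delE6 cells (0.57, edgeR adjusted p = 0.00175) was 0.34 and not called without delE6/delE6 replicate 2. The part of stress, of fibroblast RNA and of the differences in ES cell and streak markers in the values above was not tested.

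The genes whose pattern lay nearest to that of *Ier3* were sought among 12829 tested genes of at least 2 CPM, by the root mean square difference of centred log2 CPM over the 8 libraries. They were *Krt19* (0.178), *Myc* (0.231), *Ltb* (0.236), *Krt8* (0.252) and *Irak3* (0.256), where the median gene was at 0.875. *Krt19*, a simple epithelial keratin gene, stood at 40.0 ± 0.815 CPM in wild-type, 15.3 ± 0.0339 in delE6/+, 34.4 ± 7.20 in insASAY/insASAY and 66.6 ± 17.9 in delE6/delE6 cells (SD, n = 2). *Krt8*, another simple keratin gene, stood at 184 ± 6.95, 65.7 ± 2.38, 193 ± 9.05 and 254 ± 83.6 CPM in the same order. All 5 genes were lowest in delE6/+ and highest in delE6/delE6 cells, as was *Ier3*, and they were chosen for that likeness, so no test is given. The delE6/delE6 clones spread widely for *Krt19*, *Krt8* and *Ltb* (6.29 ± 2.83 CPM; SD, n = 2) and little for *Irak3* (15.1 ± 0.928 CPM; SD, n = 2).

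**Figure D5:**
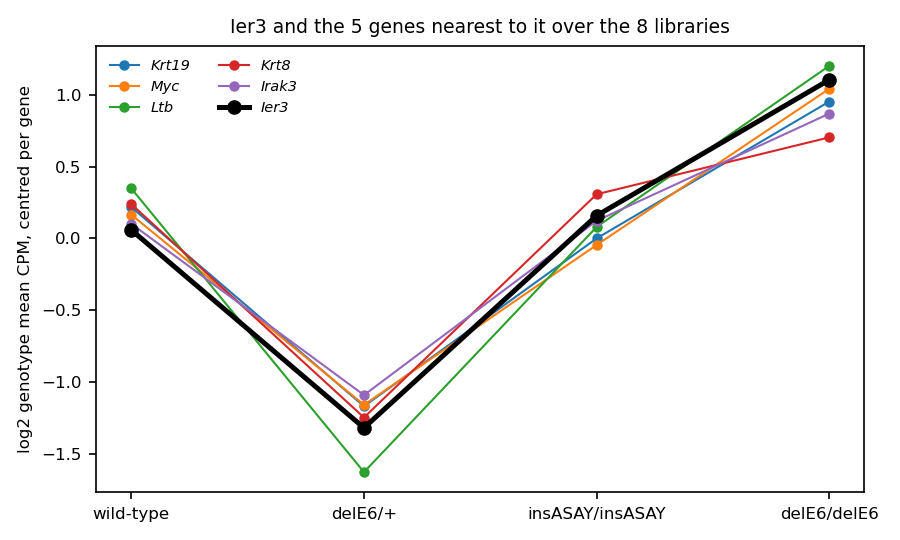
Log2 of the genotype mean CPM, centred on each gene's mean over the 4 genotypes (vertical axis), for *Ier3* (black) and the 5 genes nearest to it over the 8 libraries. All 6 lines are lowest in delE6/+ and highest in delE6/delE6.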

How the data were processed

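Poly(A) RNA of 8 libraries, 2 per genotype, was sequenced in 1 lane with a strand-specific kit. The authors mapped the reads to mm10 with STAR 2.7.2a and deposited its read counts per gene, as whole numbers without normalization. The annotation release they used is not given in the sources used here. Counts on the strand of the transcript were used. The other strand held 4.11% to 4.78% of stranded reads. STAR's summary lines, present in 7 files, were left out. They hold the reads not assigned to a single gene, 26.16% to 29.0% in those libraries. Symbols came from GENCODE M21, which holds 40606 of 48440 gene IDs in the same version, 7452 in another and 382 not at all. Among the 10 genes, *Fosl1* (7 to 54 reads) and *Fosb* (18 to 88 reads) are the least precise.

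The analysis used edgeR 4.0.16 in R 4.3.3, with TMM scaling, the filterByExpr filter (minimum count 10, minimum total 15), a quasi-likelihood fit in which each genotype has 1 coefficient, and adjustment by Benjamini-Hochberg for 17049 genes. Calls need an adjusted p below 0.05 with a log2 fold change of more than 0.5 either way, the study's thresholds, which it applied with DESeq2 1.40.2. The standard error is the fold change divided by the square root of F. TMM factors enter the CPM, and log2 CPM have 2 counts added as a prior. The main edgeR fit and the DESeq2 fit were run on simulated data with the same dispersion for every gene, and the other settings were not. The members and gene lists were chosen with earlier results of these data known. Besides the members, the text names up to 3 called genes per list and mutant line with the largest change and at least 2 CPM, the 5 genes nearest to the member with the widest range, and others marked as seen first or listed under a count. Alternatives were DESeq2 1.42.0, its size factors in edgeR, no filter, unstranded counts, fits restricted to the genotypes compared, a replicate block and leaving out each library. Figures were drawn with matplotlib 3.10.9.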

Additional observations from a re-analysis of the deposited data

How the results depend on the processing

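No fold change of a single gene changed direction while called, over 13 or 14 alternatives each. Counts of calls were compared by size only, and in some comparisons their balance of higher and lower turned. In insASAY/insASAY against delE6/delE6, 475 genes were called higher and 405 lower. DESeq2 gave 203 and 379, and a fit of those genotypes alone 252 and 320. The larger side also turned under DESeq2 in delE6/delE6 against wild-type and in delE6/+ against delE6/delE6. Of 252 recomputed counts of calls 245 stayed within 1.5 times the main count, and of 839 recomputed fold changes of the 10 genes 814 stayed on their side of the rule for a call. All genes called in insASAY/insASAY against delE6/delE6 numbered 880, but 582 by DESeq2, 572 in a fit of those genotypes alone, and 358 (without insASAY/insASAY replicate 1) to 1529 (without delE6/delE6 replicate 2) when single libraries were left out. In delE6/delE6 against wild-type the count of 2167 became 1149 without replicate 2 of delE6/delE6 and 3388 without replicate 1. Of the 10 genes, 3 to 5 were called in insASAY/insASAY against delE6/delE6 without single libraries. *Fosl1* lost its calls of insASAY/insASAY against delE6/delE6 and delE6/+ with unstranded counts (-0.82 and 0.61), that against delE6/+ under DESeq2 (1.25; DESeq2 gave no adjusted p for the other) and that against delE6/delE6 in a fit of those genotypes alone (-1.08). It gained a call in delE6/delE6 against wild-type without the filter (0.69). *Fosb* gained a call without the filter (-0.86 in delE6/+, -0.82 in insASAY/insASAY) and in fits of 2 genotypes. The cause was not tested.

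Over all genes, replicate numbers did not pair the libraries: deviations from the genotype means of same-numbered libraries correlated at -0.01 to 0.049. This does not settle it for *Fos* and *Fosb*, whose replicates differed in 1 shared direction, as given below. With a replicate block the genes called numbered 2135, 2255 and 3610 in delE6/delE6, delE6/+ and insASAY/insASAY against wild-type, and *Fosb* was called at -0.87 in delE6/+ and -0.79 in insASAY/insASAY.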

Other observations

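*Fos* and *Fosb* differed between libraries of the same genotype in 1 shared direction, a pattern looked for after their values were seen. *Fosb* was higher in the library numbered 1 than in the library numbered 2 of every genotype, by 2.31-fold in wild-type, 2.37-fold in delE6/+, 1.72-fold in insASAY/insASAY and 1.93-fold in delE6/delE6. For *Fos* the ratios were 1.51, 1.63, 1.16 and 1.38. Of the 14282 tested genes whose mean reached 1 CPM, 5.49% were higher in replicate 1 in all 4 genotypes. Ranked by the smallest of the 4 ratios, *Fosb* was number 1 and *Fos* number 12. *Ier3* was lower in replicate 1 of all 4 genotypes, by ratios of 0.657 to 0.857, as were 6.67% of the genes, and ranked number 12 in that direction. The labels do not say what a replicate number stands for, and what separates the libraries was not tested. *Jun*, *Junb*, *Jund*, *Egr1*, *Ier2*, *Fosl1* and *Fosl2* had no such shared direction.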
